A study of Caenorhabditis elegans with 4 samples.

Results

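The X chromosome carried 2081 of the 10512 CHD-3 peaks that chromatin immunoprecipitation followed by sequencing (ChIP-seq) gave on the 6 nuclear chromosomes of adult Caenorhabditis elegans. These sites were taken as all peaks assigned to X in the peak list deposited for the series as a whole, called the whole-series list here. The 2 ChIP libraries each had a peak list of their own, with 978 X peaks of 4822 in replicate 1 and 360 of 1889 in replicate 2. Both libraries came from hermaphrodites of the strain fem-2(b245), genotype fem-2(b245)III, at 20 °C. The labels give the stage as young adult with a germline, whereas their growth protocol describes gravid adults separated by sucrose floatation. An affinity-purified rabbit polyclonal antibody against CHD-3 was used for both. The 2 input libraries of the same strain entered no comparison here, and no wild-type strain was set beside the mutant. The labels do not say whether the libraries came from separate cultures, so the spread between them may be technical. All coordinates are in WormBase WS220, as the file headers state.

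CHD-3 is an ATPase of the Mi-2 family, the remodelling subunit of NuRD-type complexes, which combine nucleosome remodelling with histone deacetylation. The gene chd-3 itself lies on X in the RefSeq annotation. The fem-2 gene is needed for male development and for sperm formation. In this species X is largely silent in the germline for much of its development, and in the soma of hermaphrodites its transcription is lowered by the dosage compensation complex. Hermaphrodites are XX, so X and the autosomes are present in equal copy number. The autosomes have gene-dense centres and repeat-rich arms, a contrast that is weaker on X.

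X held a somewhat larger share of the peaks than of the sequence. It made up 17.7% of the nuclear length, taken from the highest peak end on each chromosome, and held 20.3% of the peaks of replicate 1, 19.1% of replicate 2 and 19.8% of the whole-series list. The density on X was 55.2 peaks per Mb in replicate 1, 20.3 in replicate 2 and 117.4 in the whole-series list. Chromosome III was denser than X in each list, and chromosome I was denser too in replicate 2. The ratio of X to autosomal density was 1.14 ± 0.063 (SD, n = 2). Measured as covered sequence, peaks took up 14.0% of X in replicate 1 against 11.4% of the autosomes, and 4.31% against 3.90% in replicate 2. The covered ratio was 1.17 ± 0.090 (SD, n = 2). All of these ratios were above 1, but single autosomes spanned a wider range than the gap between X and all of them together, from 39.0 peaks per Mb on V to 56.8 on III in replicate 1. An exact sign permutation over the 2 libraries cannot give a two-sided p below 0.5, so no test over samples was made, and the differences between X and the autosomes given here and below are descriptions.

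The peaks lay along the whole of X and were sparsest in its left arm. Arms were taken as the outer 25% of the length on each side, which for X are 1 to 4429722 on the left and 13289167 to 17718889 on the right. This held in each list, but by little in replicate 2. The peaks of the left arm covered 10.9% of its length in replicate 1, against 15.2% of the centre and 14.9% of the right arm. In the whole-series list the left arm had 95.04 peaks per Mb, the centre 123.8 and the right arm 127.1. The right arm was therefore about as densely occupied as the centre. Replicate 2 had 19.0 peaks per Mb in the left arm, 20.3 in the centre and 21.7 in the right arm.

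**Figure D1:**
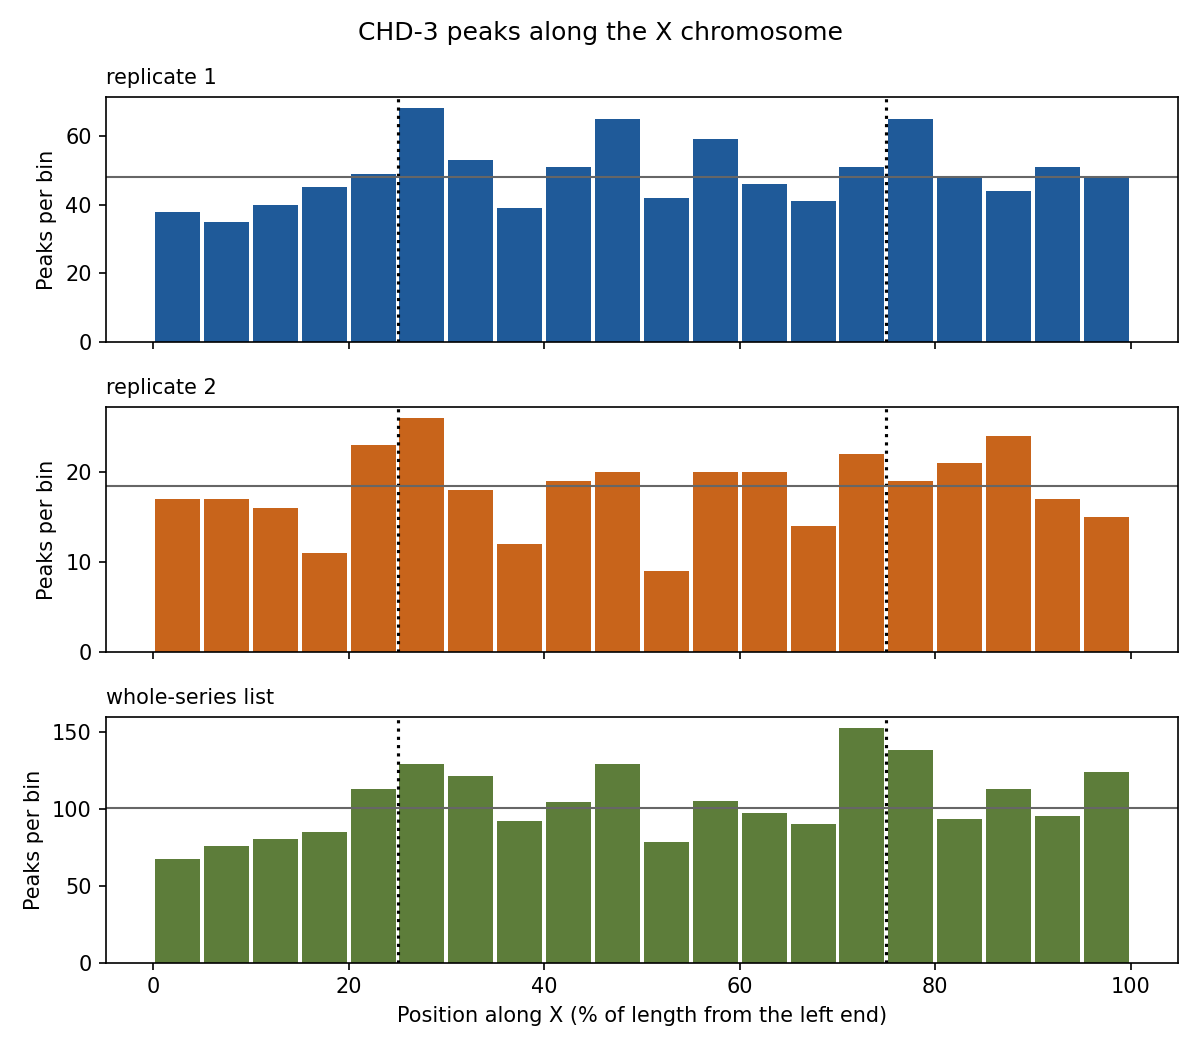
Number of CHD-3 peaks in each 5% of the X length, from the left to the right end, in replicate 1, replicate 2 and the whole-series list; dotted lines mark the arm boundaries at 25% and 75%, and the grey line is the median bin. In replicate 1 the first 4 bins hold 35 to 45 peaks and the bin just inside the left boundary holds 68, the most of any bin, as it does in replicate 2 with 26.

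The arms of X held more of its peaks than the arms of most autosomes held of theirs. The arms held 47.3% of the X peaks in replicate 1 (95% exact interval 44.2 to 50.5%), 50% in replicate 2 (44.7 to 55.3%) and 47.3% in the whole-series list (45.1 to 49.5%). On the 5 autosomes together the arm shares were 38.3% (36.8 to 39.9%), 46.2% (43.7 to 48.7%) and 41.3% (40.2 to 42.3%). The mean for X was 48.7 ± 1.88% (SD, n = 2) and for the autosomes 42.2 ± 5.55%, so the replicates differed from each other on the autosomes more than on X. Expressed as arm peaks per centre peak, X had 0.90 in replicate 1, where the autosomes ranged from 0.55 on V to 0.67 on I. In the whole-series list X had 0.90 and the autosomes 0.54 to 0.81. Replicate 2 placed X at 1.00, below chromosome II at 1.01 and above the other autosomes. X was thus the chromosome with the largest arm share in 2 of the 3 lists, and second in the other. This pools arms that differed. In the whole-series list X had 95.04 peaks per Mb in the left arm, 123.8 in the centre and 127.1 in the right arm. Chromosome II had 80.1, 117.7 and 111.3, so its right arm was closer to its centre than the left arm of X was. How well reads map in the arms was not tested.

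Counts in windows of 1 Mb also varied least on X. Over the 17 full windows of X, replicate 1 had 30 to 74 peaks with a median of 55, and replicate 2 had 15 to 31 with a median of 20. The SD of the window counts was 18.2% of their mean on X in replicate 1, against 28.8 to 41.1% on the autosomes. The spread was 20.2% on X in replicate 2, where the autosomes had 23.1 to 44.7%, and 21.1% in the whole-series list, where they had 27.2 to 40.6%. X had the smallest spread of the 6 chromosomes in each list. Fewer peaks in a window by themselves give a larger relative spread: the square root of the mean window count was 22.1% of that mean for X in replicate 2, so the spread there was no larger than this counting error. In replicate 1 the counting error was 13.5% on X and 13.3 to 16.0% on the autosomes, and the spread of each chromosome was above it. With windows of 500 kb X again had the smallest spread in each list, at 22.7% in replicate 1, 31.3% in replicate 2 and 24.6% when all peaks of the series were taken. The replicate 2 value was again no larger than the counting error, 31.4%. In replicate 2 chromosome III was also near its counting error with windows of 1 Mb, at 23.1% against 21.7%.

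**Figure D2:**
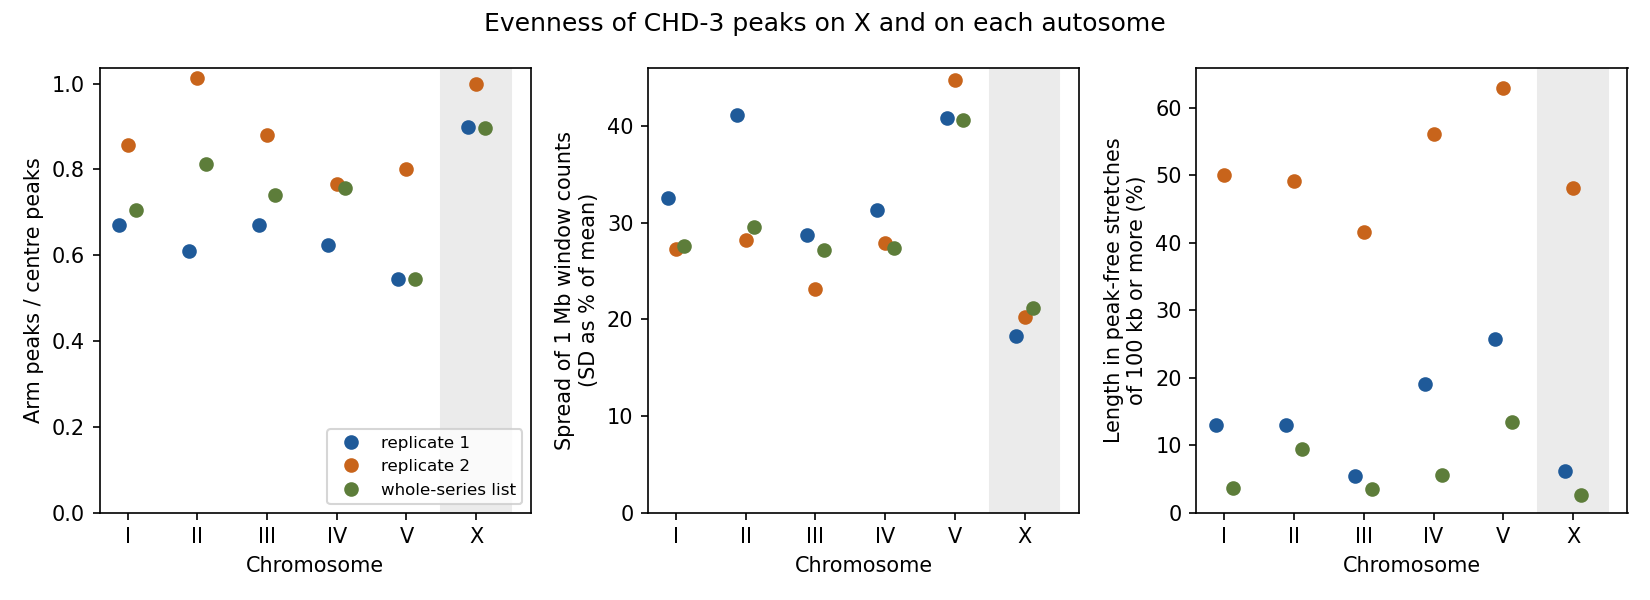
Evenness for each chromosome (I to V, and X on the shaded band), with a point for each list. The panels show arm peaks divided by centre peaks, the SD of 1 Mb window counts as a percentage of their mean, and the percentage of the length in peak-free stretches of 100 kb or more. X has the smallest spread of window counts in each list, 18.2%, 20.2% and 21.1%, and in replicate 1 its ratio of 0.90 lies above the 0.55 to 0.67 of the autosomes.

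The window from 4000001 to 5000000 was the densest of X in all 3 lists. Replicate 1 had 74 peaks there, replicate 2 had 31 and the whole-series list 161, and peaks covered 20.6%, 6.38% and 9.40% of it. The window straddles the boundary between left arm and centre. The next densest in replicate 1, from 13000001 to 14000000, held 70 peaks and straddles the boundary on the right. It had 22 peaks in replicate 2, close to that list's median, and 158 in the whole-series list. The sparsest window of replicate 1 and of the whole-series list was from 1000001 to 2000000, with 30 and 76 peaks. Replicate 2 had 15 there and also 15 from 9000001 to 10000000, its lowest counts on X, where replicate 1 had 51. Across the 17 windows, which share the chromosome and the libraries, replicate counts correlated with a Spearman coefficient of 0.39 and a Pearson coefficient of 0.56. Over the 80 autosomal windows these were 0.54 and 0.52.

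Long stretches with no peak were few on X. In replicate 1 there were 8 of 100 kb or more, which took up 6.19% of X, against 16.2% of the autosomes. Chromosome III, at 5.47%, was the only autosome with less. In the whole-series list 4 such stretches took up 2.59% of X and 7.57% of the autosomes, and each autosome had more than X. The much shorter list of replicate 2 left 48.1% of X and 53.0% of the autosomes in such stretches, and there chromosome III at 41.6% had less than X.

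The longest stretch of X with no peak in any list was 132.4 kb, from 6934576 to 7066967 in the centre. It was followed by 112.7 kb from 11095795 to 11208447, also in the centre, and by 107.1 kb from 1644713 to 1751826 and 104.5 kb from 1129338 to 1233859 in the left arm. The last 2 lie in the window with the fewest replicate 1 peaks. On the autosomes the longest such stretch ranged from 131.1 kb on I to 200.3 kb on IV, so that of X was among the shorter ones.

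Other stretches were empty in some lists only. The longest of replicate 1, 205.9 kb from 1627635 to 1833540, held 2 peaks of replicate 2 and 5 of the whole-series list. Its second longest, 172.5 kb from 1129338 to 1301803, had no replicate 2 peak and 2 whole-series peaks. The longest of replicate 2, 404.9 kb from 3128959 to 3533825, held 15 peaks of replicate 1 and 24 of the whole-series list. Its second longest, 284.0 kb from 12195942 to 12479979, held 18 and 27. The next of replicate 2, 267.9 kb from 6809163 to 7077044, spans the stretch that was empty in all lists, and replicate 1 had 4 peaks in it. The depth of the libraries is unknown here, so an empty stretch in the shorter list cannot be read as absence of CHD-3.

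The median spacing of X peaks was closer than that of autosomal peaks in each list. The median peak-free distance between neighbours was 7160 bp on X and 8430 bp on the autosomes in replicate 1, 25650 against 28474 bp in replicate 2 and 1449 against 1952 bp in the whole-series list. In the whole-series list 44.5% of the distances on X were under 1 kb, against 40.9% on the autosomes. In replicate 2 such short distances were not more frequent on X, at 9.75% against 10.4%. Peaks separated by less than 1 kb formed 210 groups of 3 or more on X, and these groups held 43.5% of its whole-series peaks, against 39.1% on the autosomes.

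The 3 largest of these groups lay in the centre of X and differed in what the replicates had there. The largest comprised 15 whole-series peaks from 12662554 to 12672905, with scores from 2.89 to 30.25. Scores are the authors' own value for each peak, on a scale that no source names, and they are used only to order peaks within a list. A score of exactly 3100 recurs at 117 X peaks of replicate 1 and 4 of replicate 2, so the highest peaks of a replicate cannot be fully ranked. A few peaks score slightly above 3100, and whether they outrank those at 3100 is unknown. In replicate 1 this group was covered by adjoining peaks of 4499 and 6542 bp, and in replicate 2 by peaks of 4870 and 2278 bp, so 9 of its 15 peaks were found in both replicates and 6 in replicate 1 alone. The smallest of the 3, with 12 peaks from 8012416 to 8024990, lay within a single peak of 15863 bp in replicate 1, and 5 of its peaks also met a replicate 2 peak.

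The second group, 13 peaks from 12508319 to 12523481, had a mosaic of support. The only replicate 1 peak there, 4219 bp wide from 12520907 to 12525125 with a score of 3100, met 3 of the whole-series peaks at the right end of the group. The 2 replicate 2 peaks, of 3914 and 2618 bp, met 4 others, and the remaining 6 met neither. None of the 13 was found in both. One of the unsupported peaks, from 12515427 to 12516716, had the second highest score (20.28) of all X peaks found in neither replicate. At 7.37 kb to the left of this group, the whole-series peak from 12500401 to 12500944 was the highest-scoring of X found in replicate 1 alone (50.59), where the replicate 1 peak scored 3100.

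Peak widths on X were close to those on the autosomes. The median width was 1715 bp on X and 1697 bp on the autosomes in replicate 1, 1676 and 1683 bp in replicate 2, and 355 and 331 bp in the whole-series list. The middle 50% of X peaks spanned 1265 to 2845 bp in replicate 1, 1270 to 2280 bp in replicate 2 and 221 to 623 bp in the whole-series list. Within X, the median in replicate 1 was 1617 bp in the left arm, 1809 bp in the centre and 1681 bp in the right arm. Wider peaks had higher scores, and across X peaks the Spearman coefficient was 0.85 in replicate 1, 0.80 in replicate 2 and, for whole-series peaks, 0.72.

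**Figure D3:**
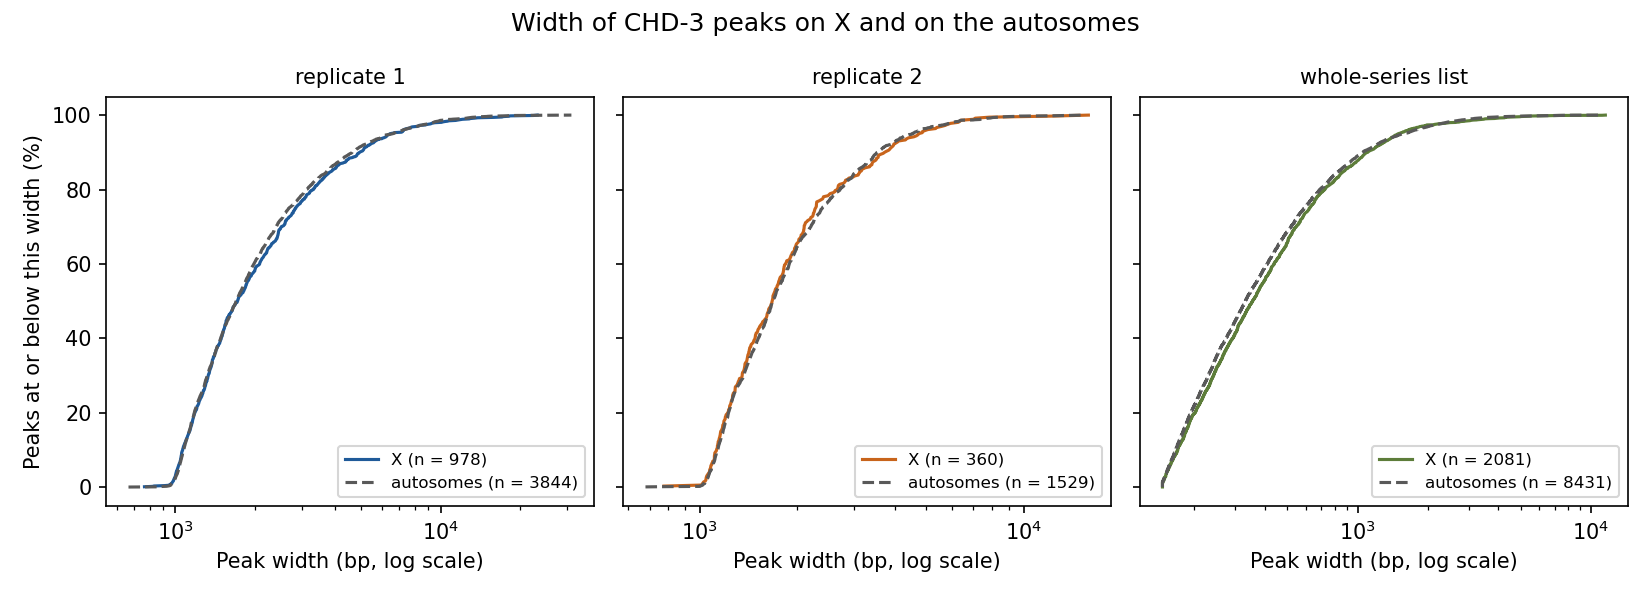
Cumulative share of peaks by width, on a log axis, for X (solid) and the autosomes (dashed) in each list. The curves nearly coincide in both replicates, with medians of 1715 and 1697 bp in replicate 1, and the X curve lies slightly to the right in the whole-series list, with medians of 355 and 331 bp.

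Broad peaks, of 5 kb or more, were slightly more frequent on X than over all nuclear chromosomes in each list. They made up 97 of the 978 X peaks in replicate 1, or 9.92%, where 8.75% of all nuclear peaks were that wide. Replicate 2 had 15 on X, or 4.17%, against 3.71% of all nuclear peaks, and the whole-series list 9, or 0.432%, against 0.314%. These shares are near those of the whole lists. In replicate 2 chromosomes II, at 4.48%, and III, at 4.35%, had larger shares than X. The next chromosome was close to X in replicate 1 (III, 9.83%) and in the whole-series list (II, 0.429%). In replicate 1 the left arm held 16 of the broad X peaks, the centre 50 and the right arm 31. The widest X peak of replicate 1, 23171 bp from 11461318 to 11484488, met 5 separate peaks of replicate 2, the widest of them 7086 bp, and 7 of the whole-series list. By contrast, the widest of replicate 2, 15852 bp from 6735042 to 6750893, lay within a single replicate 1 peak of 17163 bp although its score in replicate 2 was only 286.

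The 5 widest whole-series peaks of X measured 6267 to 11530 bp and lay in all 3 parts of the chromosome. Each had a replicate 1 peak with the repeated score of 3100. In replicate 2 their scores were spread widely: 351 at 16929264 to 16940793, 286 at 6735136 to 6746289, 765 for the highest of 3 peaks at 6249907 to 6257270, 1277 at 14556412 to 14563570, and 3100 at 2057655 to 2063921. At the last, the replicates also had nearly the same width, with 7712 bp in replicate 1 and 7840 bp in replicate 2.

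Nearly every X site of replicate 2 was also found in replicate 1. Of its 360 X peaks, 338 overlapped a replicate 1 peak by at least 1 bp, or 93.9% (90.9 to 96.1%), against 88.8% of all nuclear peaks and 87.6% (85.8 to 89.2%) of the autosomal ones. This was the highest share of the 6 chromosomes, with chromosome III next at 92.6% and V lowest at 79.8%. Replicate 1 covered the largest shares of III (14.4%) and X (14.0%) and the smallest of V (9.35%). An overlap of 1 bp is easier where more is covered, so the ranking by itself does not show closer agreement on X. The order of X and the autosomes depended on the rule. With a 50% reciprocal overlap the share was 47.8% on X and 53.5% on the autosomes. With midpoints within 250 bp it was 40% and 39.6%. Unequal widths limit reciprocal overlap: among peaks that overlapped one-to-one, replicate 1 was wider by a median ratio of 1.60 on X and 1.45 on the autosomes. In the other direction, 291 of the 978 replicate 1 peaks on X had a replicate 2 partner, or 29.8% (26.9 to 32.7%), against 30.6% of all nuclear peaks. By this share X was rank 5 of the 6 chromosomes, and with a 50% reciprocal overlap the shares were 17.6% on X and 21.3% on the autosomes. By length, the replicates shared 0.690 Mb of X, which was 27.7% of what replicate 1 covered there and 90.3% of what replicate 2 covered. The latter was 78.9 to 87.9% on the autosomes.

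Most replicate peaks of X had a counterpart in the whole-series list. In replicate 1 it was 866 of 978, or 88.5%, against 88.6% of all nuclear peaks, and in replicate 2 it was 359 of 360, or 99.7%, against 99.3%. These shares are close to those of all nuclear peaks.

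The 3 parts of X had similar support. In replicate 2 the share with a partner was 92.9% in the left arm, 94.4% in the centre and 93.75% in the right arm. In replicate 1 it was 32.4%, 28.5% and 30.1%, with intervals that overlapped. The lower number of sites in the left arm was thus not accompanied by a clearly different share found in both libraries.

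The replicate 1 sites that replicate 2 also had were the high-scoring ones. In the lowest-scoring 25% of X peaks 8 of 245 replicate 1 peaks had a partner, or 3.27% (1.42 to 6.33%), and in the highest-scoring 25% 188 of 245, or 76.7% (70.9 to 81.9%). Autosomal peaks with scores in the same ranges had a partner in 5.49% (4.10 to 7.17%) and 82.8% (80.0 to 85.3%). The second-lowest 25% differed more, with 6.15% (3.48 to 9.94%) on X and 13.0% (11.04 to 15.1%) on the autosomes. X peaks with a partner had a median width of 2992 bp and those without 1428 bp. Since wide peaks are more likely to share a base with any other, score and width cannot be told apart here. Among 254 X pairs that overlapped one-to-one, scores had a Spearman correlation of 0.53 and widths of 0.56, and the midpoints lay a median 216 bp apart.

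**Figure D4:**
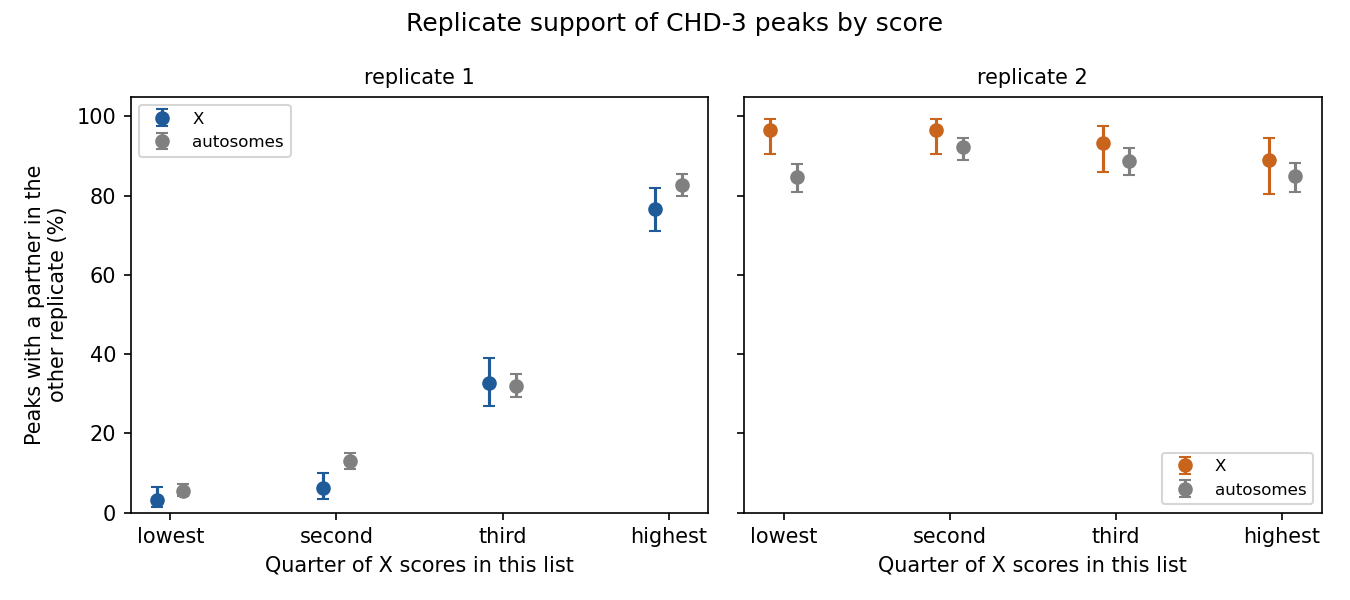
Percentage of peaks with a partner in the other replicate, by 25% class of the X scores of each list, for X (coloured) and for autosomal peaks in the same score ranges (grey); bars are 95% exact intervals. In replicate 1 the share on X goes from 3.27% in the lowest to 76.7% in the highest class, while in replicate 2 it is 96.7% in the lowest and 88.9% in the highest.

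The few X peaks of replicate 2 without a partner included some of its strongest. In replicate 2 the share with a partner went from 96.7% (90.6 to 99.3%) in the lowest-scoring 25% of X peaks to 88.9% (80.5 to 94.5%) in the highest. These intervals overlap. Autosomal peaks with scores in the same ranges had a partner in 84.7% and 84.9%. The 22 unpartnered peaks had a median width of 3218 bp, against 1642 bp for the 338 with a partner, whereas on the autosomes these medians were 1677 and 1683 bp. Of the 5 X peaks of replicate 2 with a score of 3100 or more, 3 had no replicate 1 peak, and on the autosomes 3 of 14 had none. These 3 were also the highest-scoring whole-series peaks found in replicate 2 alone. They lay at 15806686 to 15811642 (4957 bp, score 3154), at 108851 to 114668 (5818 bp, 3100) and at 289375 to 295730 (6356 bp, 3100), and their whole-series scores were nearly equal at 33.79, 33.55 and 33.45. Of the 22, 21 overlapped a whole-series peak, 10 lay in the centre and 6 in each arm, and the median distance to the nearest replicate 1 peak was 8091 bp.

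The highest scores of replicate 2 on X gathered near the left end, a pattern noticed after the values were seen. The left end of X is where the meiotic pairing centre of this chromosome, bound by the zinc-finger protein HIM-8, is known to lie. Its position was not compared with the peaks here, and a link to them was not tested. Within the first 300 kb replicate 2 had 8 peaks, and 4 of these scored 2900 or more, out of 6 such peaks on the whole of X. By parts of X, 5 of these 6 lay in the left arm, 0 in the centre and 1 in the right arm. With a lower bound of 1000 this split was more even: of 24 such X peaks, 10 lay in the left arm, 8 in the centre and 6 in the right arm. The 4 within the first 300 kb included the peaks at 108851 to 114668 and 289375 to 295730 just named. The others were the peak at 142475 to 144130 (2945) and the peak at 187870 to 190574 (3100), whose replicate 1 counterpart scored 818. For another of the 8, at 166865 to 170419, the score was 1014 in replicate 2 but 3100 in replicate 1. In the same 300 kb replicate 1 had 9 peaks, 2 of them at 2900 or more. The last 300 kb of X held 7 replicate 2 peaks with a highest score of 478, and 16 replicate 1 peaks with 3 at 2900 or more. The gathering was thus seen in replicate 2 alone. In replicate 1, 124 of all 978 X peaks scored 3100 or more, 117 of them exactly 3100. High scores in replicate 1 thus occurred well beyond the left end, but these ties hide where its few highest peaks lay. The libraries also differed over which left-end sites were strongest. At the extreme left, all 3 lists had a peak that began at base 1, with ends at 764 in replicate 1, 775 in replicate 2 and 351 for the series as a whole. At the right end a whole-series peak from 17718338 to 17718889, the highest end on X, had no counterpart in either replicate and was the highest-scoring peak of that class on X (21.53).

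Some of the strongest replicate 1 peaks were lacking in replicate 2. Of the 124 X peaks of replicate 1 with a score of 3100 or more, 111 had a partner, or 89.5%, and 13 did not. On the autosomes 403 of 445 such peaks had a partner, or 90.6%, and 42 did not, so X was close to them. Of the 13 on X, 1 was in the left arm, 7 in the centre and 5 in the right arm. The centre and right arm held 95 of the 124 in all, or 76.6%. The 13 without a partner included a peak of 3346 bp from 13542016 to 13545361 (3212) and one of 3501 bp from 13595235 to 13598735 (3178). Both fall in the second densest window of replicate 1. The others scored exactly 3100 and cannot be ordered. Among them was a peak of 6234 bp from 3942634 to 3948867, the only left-arm peak of the 13. Each of the 3 named peaks met 2 to 4 whole-series peaks. Of the broad X peaks of replicate 1, 21 of 97 had no replicate 2 partner, and 20 of these 21 lay in the centre or right arm, which held 81 or 83.5% of all 97. On the autosomes 48 of 325 broad peaks had no partner.

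Most whole-series X peaks were found in replicate 1 alone. Of the 2081, 529 or 25.4% (23.6 to 27.3%) overlapped a peak in both replicates, against 26.0% of all nuclear peaks. Replicate 1 alone accounted for 1206 or 58.0% (55.8 to 60.1%), against 52.9%. Replicate 2 alone accounted for 32 or 1.54% (1.05 to 2.16%), against 3.15%, and neither for 314 or 15.1% (13.6 to 16.7%), against 18.0%. Among the 6 chromosomes X had the largest share in replicate 1 alone and the smallest in replicate 2 alone and in neither. The autosomes ranged from 49.3 to 54.3% for replicate 1 alone, from 2.55 to 4.59% for replicate 2 alone and from 15.8 to 20.9% for neither. When a partner had to overlap by 50% in each direction, only 3.03% of the X peaks matched both, while 0.432% matched just replicate 1, 9.71% just replicate 2 and 86.8% had no match, so the order of the single-replicate classes turned around. For X peaks found in both, the median width was 807 bp and the median score 15.02. Those in replicate 1 alone had 322 bp and 5.81, and those in neither 216 bp and 4.47.

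The 32 X peaks found in replicate 2 alone were large. Their median width was 1195 bp and their median score 16.33, both above those of the X peaks found in both replicates. On the autosomes the medians for the 299 peaks of this class were 510 bp and a score of 9.38. Conversely, the highest peaks of replicate 1 alone on X scored 50.59, 37.21 and 31.23 and were 544 to 655 bp wide. Both kinds of list could come from shared reads, so overlap of the whole-series list with a replicate is no independent support.

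The 10 highest-scoring X sites found in both replicates were spread over the chromosome, with 4 in the left arm, 3 in the centre and 3 in the right arm. The first lay in the left arm at 142811 to 143719 (909 bp) with a whole-series score of 90.32, and is the site near the left end described above. The first of the centre lay close to the middle of X, at 9007051 to 9008243 (1193 bp, 78.6), and scored 3100 in replicate 1 and 1295 in replicate 2. The first of the right arm lay at 16100067 to 16101219 (1153 bp, 72.95), with 3100 and 1007. Replicate 1 gave 3100 at 9 of the 10 sites, so the order among them cannot be seen there.

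Replicate 2 gave the same 10 sites a wide range of scores. Beside those already given, the left-arm sites at 2002659 to 2004003 (76.83) and 2057655 to 2063921 (70.14) lay 53.7 kb apart and scored 2236 and 3100 in replicate 2. The site at 14489743 to 14490854 (55.51) scored 486 and the broad one at 6249907 to 6257270 (54.92) scored 765. Lower replicate 2 scores were found at 6057259 to 6058069 (74.17), with 195, and at 1010559 to 1011824 (56.11), with 164. The lowest was 63.2, at 17255654 to 17256067 (56.11), where replicate 1 also gave less than 3100, with 2187. That site was the narrowest of the 10, at 414 bp. The sizes of scores are not comparable between replicates, since depth is unknown, but their order within replicate 2 is: 63.2 lies among the lowest 25% of its X scores, which end at 81.4, whereas 164 and 195 lie above their median of 135.9.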

How the data were processed

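CHD-3 ChIP-seq peaks of 2 ChIP libraries were analysed; the 2 input libraries entered no comparison. Reads were aligned with BWA to ce10, per the submitters' processing notes. Peaks were called with MACS for each replicate and with MACS v2 for the whole-series list, per the file headers and source fields. Thresholds, pooling and the use of input were not given in the sources used here. A score deposited by the authors, with no named scale, comes with each peak and its start and end in WS220. In both replicate lists the score 3100 recurs, so the highest peaks cannot be fully ranked. No read counts were used, so library depth, and with it the precision of a peak call, is unknown.

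From these lists, X peaks were selected by chromosome name. Chromosome lengths were the highest peak end over the 3 lists. A peak belonged to the part or window that held its midpoint. Peaks were partners when they shared at least 1 bp. Intervals on shares are 95% exact (Clopper-Pearson). They cover counting error alone, as if peaks were independent. No test was made over samples, since 2 libraries cannot give a two-sided exact sign permutation p below 0.5, and none over peaks. Interval functions were checked on simulated data.

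The sites and lists were chosen with earlier results of these data known. Regions were named by rule: the 10 highest-scoring whole-series X peaks found in both replicates and the highest in each part, the 5 widest, the 3 highest in each class of support, the widest of each replicate, the densest and sparsest windows, the 3 longest empty stretches and the 3 largest groups of peaks less than 1 kb apart. Replicate 2 peaks at 2900 or more, those within 300 kb of an end, the second densest window, the stretches empty in all lists, and the strongest peaks without a partner were chosen after their values were seen. Genes and sequences at the peaks are not reported, since the gene table used follows WBcel235 and the peaks WS220. Alternatives for partners were 50% reciprocal overlap, a midpoint distance of up to 250 bp, use of the higher-scoring 50% of a list, and top-scoring X peaks in equal number. Others were covered length, wider arms, windows of 500 kb, joining peaks with gaps under 200 bp, and leaving out each replicate. Software was pandas 2.3.3, numpy 2.4.6, matplotlib 3.10.9 and scipy 1.17.1 under Python 3.11.15.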

Additional observations from a re-analysis of the deposited data

How the results depend on the processing

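Of 29 alternatives to 10 values, 7 stayed within the interval or within 1 SD of the replicates and 22 moved beyond it. Leaving out either replicate (8 values) is not counted: with 2 replicates it returns the value of the other and always stays within 1 SD. None of the values carries a test. Overlap shares moved most. With a 50% reciprocal overlap, 47.8% of replicate 2 and 17.6% of replicate 1 X peaks had a partner, and of the whole-series X peaks 3.03% matched both replicates, 0.432% the first alone, 9.71% the second alone and 86.8% neither, which turned around the order of the single-replicate classes. The replicate 2 share was then lower on X than on the autosomes (53.5%), the opposite of the 1 bp rule. With midpoints within 250 bp these values were 40% and 14.7%, and 5.72%, 23.7%, 7.69% and 62.9%. Autosomal shares by midpoints were 39.6% in replicate 2 and 15.7% in replicate 1. The whole-series peaks are narrower than the replicate peaks, so both rules limit matches by width. Among the higher-scoring 50% of each list, 88.8% of replicate 2 X peaks had a partner and the 4 classes were 22.7%, 53.1%, 2.61% and 21.6%, with fewer peaks left that could match. With equal numbers of top-scoring X peaks, 78.6% of replicate 2 and 66.67% of replicate 1 peaks had a partner. The X to autosome density ratio stayed between 1.13 and 1.19 under covered length, the upper 50% and merging, and was 1.10 to 1.19 with either replicate left out. The arm share of X was 67.3% when wider arms, 66.6% of the length in all, were used, and 47.3 to 50% with either replicate left out. Merging peaks closer than 200 bp moved the mean of the replicates' median widths from 1695 to 1746 bp, since merged peaks are wider. The highest window count over the median went from 1.45 to 1.63 with windows of 500 kb, where counts are smaller. Leaving out either replicate gave 1676 to 1715 bp and 1.35 to 1.55 for these 2 values. No paired analysis was possible because input peaks were not analysed here. Unknown depth limits any reading of the fewer peaks in replicate 2.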
